A study of Homo sapiens with 6 samples.

Results

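The matrix metalloproteinases (MMP), the membrane-anchored disintegrin metalloproteinases (ADAM), their secreted relatives with thrombospondin repeats (ADAMTS) and the tissue inhibitors of metalloproteinases (TIMP) were followed in cholangiocarcinoma cells with and without additional STUB1. Members were taken by gene symbol alone, and 54 of the 23569 genes in the table matched, namely 16 MMP, 17 ADAM, 17 ADAMTS and 4 TIMP genes. RNA-seq was performed on TFK1, a cancer cell line derived from an extrahepatic bile duct carcinoma, in negative control cells (oeNC, n = 3 libraries) and in cells overexpressing STUB1 (oeSTUB1, n = 3 libraries). The labels give no treatment for any of the 6 libraries. The methods of the study describe lentiviral transduction of the full-length STUB1 coding sequence in the pHAGE vector, followed by puromycin selection of a stable population. STUB1 is a chaperone-associated E3 ubiquitin ligase, and the RNA-seq comparison was made to search for genes repressed through UHRF1 and the DNA methyltransferase DNMT1 when STUB1 is raised. The methods state in general that experiments were repeated independently, but neither they nor the labels say whether the libraries of a group were separate transductions or cultures. The p-values therefore measure only the spread between these libraries, and an effect of STUB1 cannot be told apart from a difference between the selected populations.

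MMPs are zinc endopeptidases that cut collagens, gelatin, laminins and many surface proteins, and most are made as inactive proenzymes that are secreted or tethered to the membrane. ADAM proteases release the outer parts of growth factors, cytokines and adhesion molecules from the cell surface, whereas ADAMTS proteases trim proteoglycans and procollagens in the matrix. TIMPs block MMPs by binding the active site, and TIMP2 also forms a complex with MMP14 in which proMMP2 is activated. In bile duct cancer these families are studied mainly for invasion through the dense stroma.

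Because the study asked about promoter methylation, the promoters of members are shown first, as RefSeq sequences of GRCh38.p14 covering 250 bases before and 50 bases after the annotated start. A window was used only for members with a single entry, which held for 31 of the 54. Among the members whose level differed between the groups, TIMP2, ADAMTS9, ADAMTS16, MMP16, ADAM11 and MMP2 had no single entry. Members with several entries and members with none were not told apart. MMP7 and MMP10 both lie in the MMP cluster of chromosome 11. They are printed, with the matches in capitals, as the members whose window held both an AP-1 site and a TATA box. The MMP7 window is chr11:102530698-102530997 and the MMP10 window chr11:102780579-102780878, both on the minus strand.
MMP7: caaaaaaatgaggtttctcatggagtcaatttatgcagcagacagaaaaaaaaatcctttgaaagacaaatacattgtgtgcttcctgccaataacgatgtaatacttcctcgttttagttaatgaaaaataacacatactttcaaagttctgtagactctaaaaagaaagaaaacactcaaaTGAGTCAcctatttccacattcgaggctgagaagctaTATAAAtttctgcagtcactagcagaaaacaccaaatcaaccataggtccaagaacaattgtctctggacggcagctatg
MMP10: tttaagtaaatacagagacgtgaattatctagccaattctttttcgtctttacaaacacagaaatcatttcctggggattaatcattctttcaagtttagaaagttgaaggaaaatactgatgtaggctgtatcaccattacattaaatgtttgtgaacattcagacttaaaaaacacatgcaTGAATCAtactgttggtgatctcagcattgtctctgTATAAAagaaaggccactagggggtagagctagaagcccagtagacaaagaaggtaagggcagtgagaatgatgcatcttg
In both windows the AP-1 letters begin at -67 from the start, and the TATA letters begin at -30 in MMP7 and at -31 in MMP10. Searched on both strands, the AP-1 letters TGANTCA occurred in 7.7% and the TATA letters TATAAA in 11.5% of 35116 promoter windows. That background took every entry, whereas member windows come only from genes with a single entry. These 2 motifs do not overlap, and ADAMTS12 was the other member window with an AP-1 match, beginning at -84. The expression of these 2 genes was far apart. MMP7 was the second most abundant member, and MMP10 reached no more than a few hundredths of an FPKM on average.

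Promoters of 4 members that differed between the groups are printed next with each CpG in capitals, to show how widely the number of methylatable positions varied. The windows are chr14:22836335-22836634 on the plus strand for MMP14, chrX:47582186-47582485 on the plus strand for TIMP1, chr2:9555781-9556080 on the minus strand for ADAM17 and chr5:179345412-179345711 on the minus strand for ADAMTS2.
MMP14: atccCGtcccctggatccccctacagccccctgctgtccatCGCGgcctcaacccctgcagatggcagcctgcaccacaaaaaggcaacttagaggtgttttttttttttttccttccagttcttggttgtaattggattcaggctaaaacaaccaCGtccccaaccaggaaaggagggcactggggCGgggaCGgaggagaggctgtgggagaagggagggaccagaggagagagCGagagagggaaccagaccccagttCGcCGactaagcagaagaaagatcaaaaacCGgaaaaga
TIMP1: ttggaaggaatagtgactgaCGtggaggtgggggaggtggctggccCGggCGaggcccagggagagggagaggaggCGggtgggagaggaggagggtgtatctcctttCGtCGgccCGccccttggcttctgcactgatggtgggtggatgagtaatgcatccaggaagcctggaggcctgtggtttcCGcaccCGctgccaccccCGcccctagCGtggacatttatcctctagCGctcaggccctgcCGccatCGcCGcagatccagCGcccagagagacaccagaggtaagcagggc
ADAM17: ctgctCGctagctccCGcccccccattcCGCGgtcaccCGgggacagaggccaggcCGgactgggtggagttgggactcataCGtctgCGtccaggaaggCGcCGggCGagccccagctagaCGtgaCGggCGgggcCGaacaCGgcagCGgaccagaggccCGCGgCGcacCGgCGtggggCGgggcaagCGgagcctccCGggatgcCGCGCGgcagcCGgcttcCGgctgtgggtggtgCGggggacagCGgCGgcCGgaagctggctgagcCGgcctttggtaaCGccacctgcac
ADAMTS2: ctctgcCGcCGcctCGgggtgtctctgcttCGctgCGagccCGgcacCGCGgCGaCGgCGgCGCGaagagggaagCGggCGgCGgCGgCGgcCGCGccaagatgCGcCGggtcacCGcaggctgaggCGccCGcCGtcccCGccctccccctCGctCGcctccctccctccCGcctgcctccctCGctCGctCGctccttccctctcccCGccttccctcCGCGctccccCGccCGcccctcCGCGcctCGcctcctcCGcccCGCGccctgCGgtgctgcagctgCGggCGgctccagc
MMP14 has 10 CpG dinucleotides in this window, TIMP1 16, ADAM17 36 and ADAMTS2 47. The median was 14 and the quartiles 4 and 28 over all 35116 windows, which include any further entries of a gene. The GC box letters GGGCGG, which contain a CpG, occurred in 45.0% of all windows on either strand and were found in each of these 4 windows. Methylation of these windows was not analysed here.

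The recovered library totals lay between 33106564 and 36744521 fragments. Levels are given in FPKM, fragments scaled to gene length and to the fragments counted in the library. STUB1 lay between 30.9 and 33.0 FPKM in the oeNC libraries and between 61.4 and 74.97 FPKM in the oeSTUB1 libraries, in accord with each label. The library oeSTUB1 replicate 2 stood apart. Its chi-square per degree of freedom against the other two oeSTUB1 libraries was 76.7 and 82.6, where other replicate pairs had 3.48 to 10.4, and genes of at least 8000 bases lay 0.59 below genes under 2000 bases in their median log2 deviation, against 0.05 to 0.19 above in the other libraries. Of 7 biliary epithelial markers, KRT8, KRT18, EPCAM and CDH1 passed the test as lower and KRT19 as higher, where 13.6% of all genes tested passed. KRT7 was higher in every oeSTUB1 library (587 to 872 FPKM, against 482 to 527 FPKM in oeNC) without passing (limma adjusted p = 0.082). SOX9 overlapped between the groups. The sum of the 7, mostly KRT8 and KRT18, ran from 7420 to 8000 FPKM over oeNC and from 4720 to 6260 FPKM over oeSTUB1 libraries. KRT19 was low in both groups, at a mean of 0.453 FPKM in oeNC and 2.97 FPKM in oeSTUB1. All 8 fibroblast markers but COL1A1 and all 5 endothelial markers stayed under 1 FPKM in every library. The summed fibroblast markers were 1.31 to 2.36 FPKM in oeNC and 2.16 to 4.05 FPKM in oeSTUB1, and the endothelial ones 0.077 to 0.103 FPKM and 0.0974 to 0.250 FPKM, with DCN at a mean of 0 and 0.00421 FPKM and VWF at 0.00109 and 0.00220 FPKM. Of 6 leukocyte markers 3 stayed under 1 FPKM in every library, and their sum was 32.4 to 34.7 FPKM in oeNC and 25.9 to 26.5 FPKM in oeSTUB1, mostly CD68, which passed the test as lower. The part of these shifts in the results that follow was not tested.

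Of the 54 members, 34 had a mean of at least 0.1 FPKM and were tested, and 14 passed an adjusted p of 0.05 in limma, 8 as higher and 6 as lower in oeSTUB1. Across all 15353 genes tested 13.6% passed, 7.01% as higher and 6.59% as lower, while the shares among tested members were 41.2%, 23.5% and 17.6%. With a log2 fold change beyond 1 in addition, 3 members were higher and 3 lower, against 2.79% and 2.40% of all genes tested. In 19 of 34 tested members (55.9%) the 3 values of one group lay outside the range of the other, against 38.8% of all genes tested. MMP16, ADAMTS8 and ADAMTS2 reached the minimum of 0.1 FPKM only through the group in which they were higher, and the shares among tested members do not stand for all 54. Because the families were chosen with earlier results of these data known, the shares are given as a description. The median log2 fold change of the tested members was 0.11 and that of all genes 0.02. Without oeSTUB1 replicate 2 there were 10 higher and 6 lower members, and 26.8% of all genes passed. The log2 fold changes given here are differences of log2(FPKM + 0.1) between group means and understate the change of low genes. With a pseudocount of 1 the 14 calls did not change in direction, but several values were smaller by more than 1.5 times. These were MMP16 (0.32), ADAMTS2 (-0.24), MMP14 (-0.61), ADAMTS16 (0.38), MMP2 (0.28), ADAM11 (-0.33) and ADAM22 (-0.48). In bulk RNA, fewer cells with a transcript and less transcript per cell cannot be told apart.

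**Figure D1:**
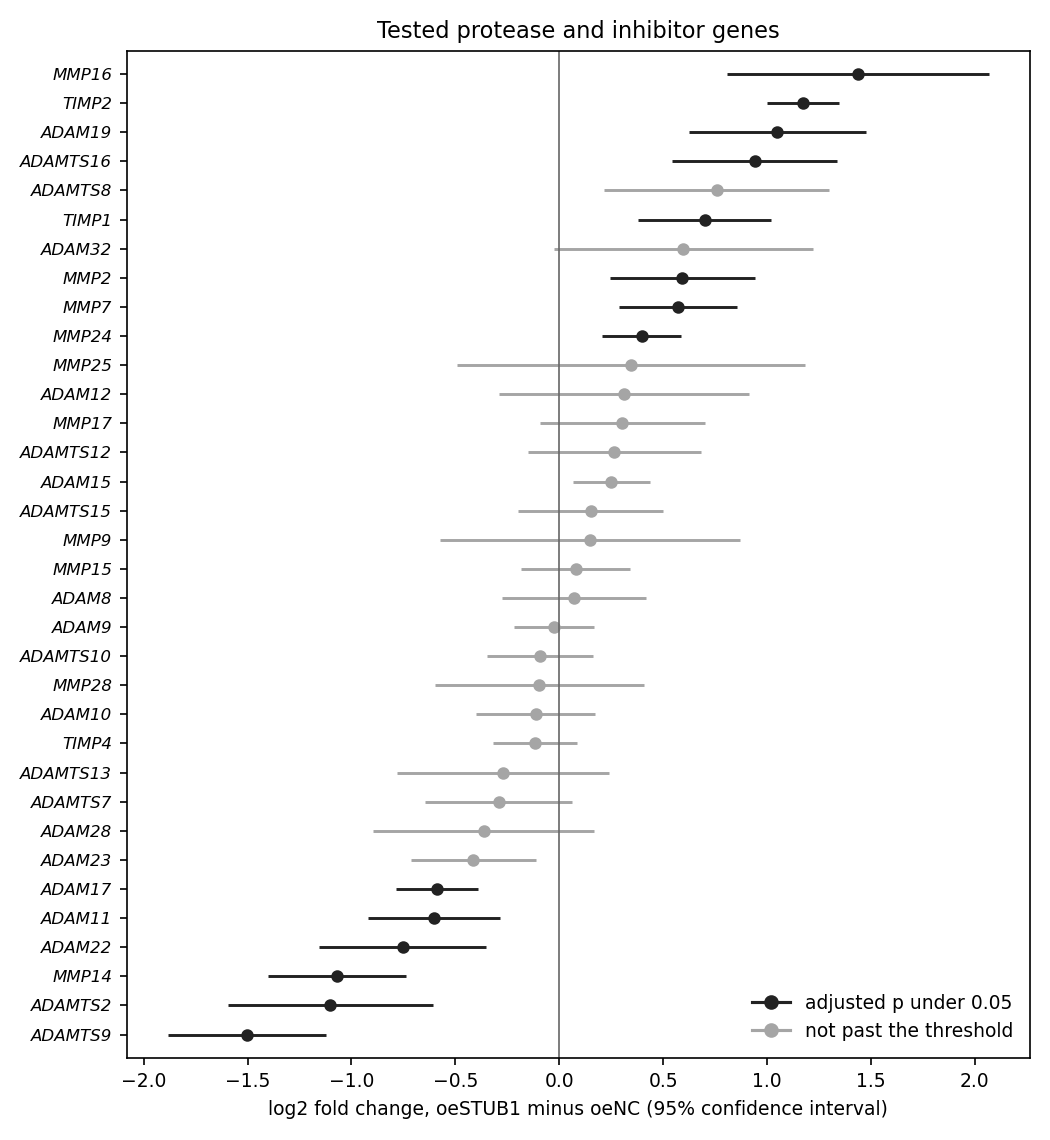
Log2 fold change (oeSTUB1 minus oeNC, x axis) with its 95% confidence interval from limma for the 34 tested members. Black points passed an adjusted p of 0.05, and they run from -1.50 for ADAMTS9 to 1.44 for MMP16, with grey members between -0.41 and 0.76.

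Levels differed more between members than between groups. ADAM9 was the most abundant member with a mean of 119 FPKM over the 6 libraries, followed by MMP7 (36.5 FPKM), TIMP1 (34.3 FPKM), TIMP2 (30.6 FPKM) and ADAM10 (28.7 FPKM). MMP7, TIMP1, TIMP2 and ADAM10 did not keep one order across libraries, since ADAM10 was highest of the 4 in 2 oeNC libraries and lowest in all 3 oeSTUB1 libraries. A mean of at least 1 FPKM was reached by 21 members. Sums over a family are given without a test. The oeNC libraries had a summed TIMP level of 50.6 ± 1.20 FPKM and the oeSTUB1 libraries one of 90.6 ± 8.49 FPKM (SD, n = 3), and the summed MMP level, of which MMP7 made up 58.5%, was 52.9 ± 1.83 FPKM and 72.1 ± 7.61 FPKM. Summed ADAMTS levels were 32.9 ± 0.992 FPKM and 20.3 ± 3.07 FPKM, with 49.3% from ADAMTS9. Summed ADAM levels overlapped between the groups, at 202 ± 2.17 FPKM and 195 ± 14.8 FPKM.

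**Figure D2:**
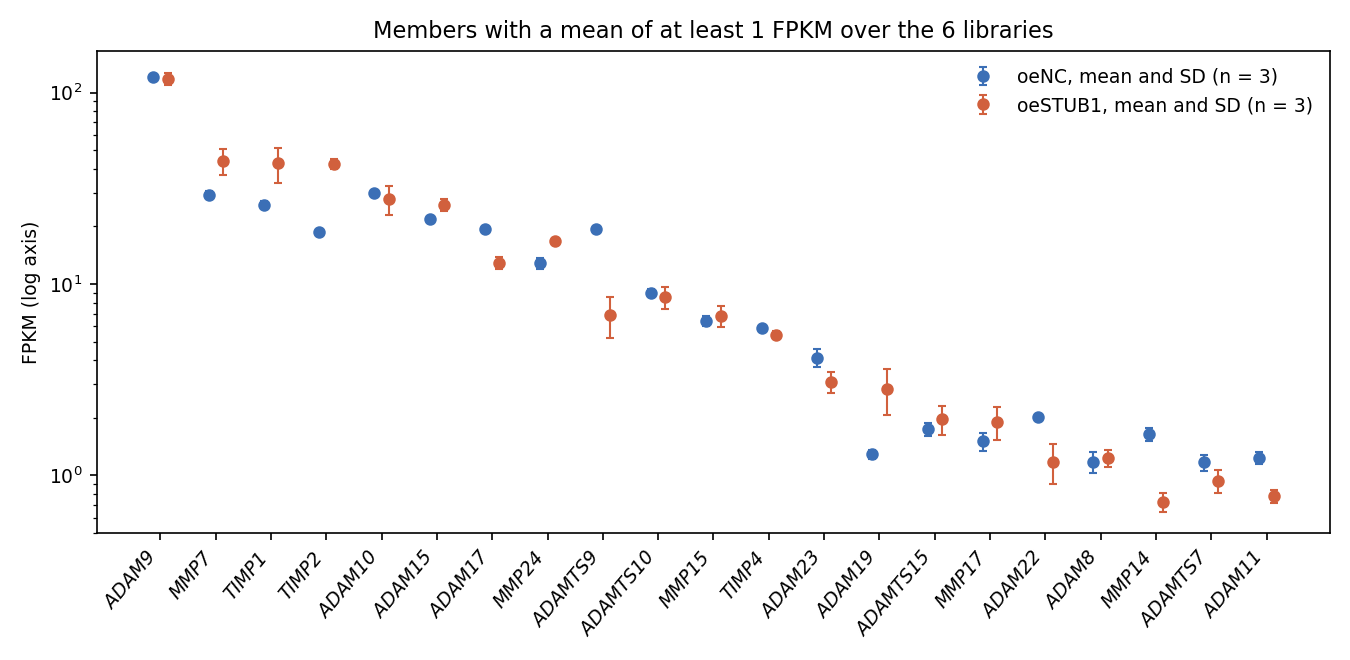
Mean FPKM (log axis) with SD (n = 3) in oeNC and oeSTUB1 for the 21 members with a mean of at least 1 FPKM over the 6 libraries, ordered by that mean. ADAM9 lies near 120 FPKM in both groups, TIMP2 separates upwards and ADAMTS9 and MMP14 separate downwards.

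Among the inhibitors, TIMP1 and TIMP2 rose, TIMP4 did not pass the test and TIMP3 was too low to be tested. TIMP2, which both blocks MMPs and partners MMP14, was 19.0, 18.9 and 18.3 FPKM in oeNC and 44.6, 42.8 and 39.8 FPKM in oeSTUB1. Every oeSTUB1 library was above every oeNC library by a wide gap, and the spread within each group was small. The log2 fold change was 1.17 (standard error, SE, 0.075, limma adjusted p = 0.00014), the smallest adjusted p of all members. TIMP2 lies on chromosome 17 from 78852977 to 78925387 on the minus strand of GRCh38 (GENCODE release 29) and is protein coding.

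TIMP1, a broad inhibitor that acts poorly on several membrane-type MMPs, was 27.0, 24.8 and 25.9 FPKM in oeNC and 35.3, 52.5 and 40.3 FPKM in oeSTUB1. The groups did not overlap, and oeSTUB1 replicate 2 was the highest. Its log2 fold change was 0.70 (SE 0.139, limma adjusted p = 0.015) and was 0.54 without that library (limma adjusted p = 0.0019, with 0.0011 to 0.072 over the alternatives). TIMP1 no longer passed when any single oeNC library was left out (adjusted p 0.054 to 0.072 from limma). TIMP4 was 5.86, 5.73 and 6.06 FPKM in oeNC and 5.47, 5.11 and 5.69 FPKM in oeSTUB1. These groups were separated by a narrow margin, with a log2 difference of -0.12 (95% confidence interval -0.32 to 0.09, limma adjusted p = 0.41). TIMP3, an inhibitor bound to the matrix that also blocks ADAM17, was covered by 8, 10 and 7 fragments in oeNC and 9, 4 and 3 fragments in oeSTUB1.

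The membrane-type MMPs, which are anchored at the cell surface, were all 6 tested, and of these MMP16 and MMP24 rose, MMP14 fell, and the others did not pass. MMP14, the activator of proMMP2, was 1.68, 1.75 and 1.49 FPKM in oeNC and 0.792, 0.637 and 0.759 FPKM in oeSTUB1. The highest oeSTUB1 library was well under the lowest oeNC library. Its log2 fold change was -1.07 (SE 0.143, limma adjusted p = 0.0029). MMP14 lies on chromosome 14 from 22836557 to 22849027 on the plus strand of GRCh38 (GENCODE release 29). The ratio of TIMP2 to MMP14 in FPKM was 11.3, 10.8 and 12.3 in oeNC and 56.4, 67.2 and 52.5 in oeSTUB1. The separation of these ratios follows from that of the 2 genes, which moved in opposite directions, and adds no evidence.

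MMP16, also called MT3-MMP, was 0.0474, 0.0633 and 0.0367 FPKM in oeNC and 0.345, 0.193 and 0.401 FPKM in oeSTUB1. This corresponded to 33, 44 and 27 fragments against 238, 128 and 275, so the gene was scarce in oeNC but well above 3 fragments, the floor at or under which a group was taken as not measured. The groups did not overlap, and oeSTUB1 replicate 2 was the lowest of its group for this long transcript. Its log2 fold change of 1.44 (SE 0.272, limma adjusted p = 0.013) was the largest rise among tested members on this scale, but with a pseudocount of 1 it was 0.32, below the 1.14 of TIMP2. Without oeNC replicate 3 MMP16 just missed the threshold (1.38, limma adjusted p = 0.052, with 0.0023 to 0.052 over the alternatives). The pseudocount reduces the value of so low a gene, and limma-voom on the recovered fragments gave 2.63.

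MMP24, also called MT5-MMP, was 13.3, 11.8 and 13.2 FPKM in oeNC and 17.4, 16.3 and 16.8 FPKM in oeSTUB1. The rise was modest but free of overlap, with a log2 fold change of 0.40 (SE 0.082, limma adjusted p = 0.018). MMP24 lies inside the span of MMP24OS on the opposite strand, and whether counting used strand is not given in the sources used here, so its value is uncertain. MMP24OS was 18.2, 17.0 and 18.0 FPKM in oeNC and 16.0, 26.6 and 18.1 FPKM in oeSTUB1, with overlapping groups and an adjusted p of 0.58 from limma. The call of MMP24 was lost in 5 of the 6 fits that left out a library, all but that without oeSTUB1 replicate 2. MMP15 was 6.82, 6.06 and 6.34 FPKM in oeNC and 5.87, 7.50 and 7.03 FPKM in oeSTUB1, with overlapping groups and a log2 difference of 0.08 (95% confidence interval -0.18 to 0.34). MMP17 and MMP25 overlapped between the groups as well, at log2 differences of 0.30 and 0.35, and MMP25 is overlapped by an antisense gene, MMP25-AS1.

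Secreted MMPs were dominated by matrilysin. MMP7, which cuts E-cadherin and syndecans at epithelial surfaces, was 28.1, 28.6 and 31.0 FPKM in oeNC and 35.9, 47.2 and 48.4 FPKM in oeSTUB1. All oeSTUB1 libraries lay above all oeNC libraries, with replicate 1 the nearest to the controls. The log2 fold change was 0.57 (SE 0.123, limma adjusted p = 0.021). MMP7 lost its call without any single oeNC library and without oeSTUB1 replicate 3 (adjusted p 0.060 to 0.091 from limma).

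The gelatinases degrade denatured collagen and basement membrane collagen. MMP2 was 0.542, 0.655 and 0.518 FPKM in oeNC and 0.928, 0.885 and 0.915 FPKM in oeSTUB1, with tight and separate groups. Its log2 fold change was 0.59 (SE 0.151, limma adjusted p = 0.039), and it was the called member nearest to the threshold, no longer passing without any one of 5 libraries or when the low-value filter was dropped (limma adjusted p = 0.089, with 0.017 to 0.145 over the alternatives). MMP9 was 0.160, 0.0370 and 0.163 FPKM in oeNC and 0.149, 0.116 and 0.138 FPKM in oeSTUB1. Its groups overlapped, and the log2 difference of 0.15 had a 95% confidence interval from -0.57 to 0.87. The other tested MMP, MMP28, overlapped between the groups, while the interstitial collagenase MMP1, the stromelysins MMP10 and MMP11, and MMP19, MMP21 and MMP23B stayed below the filter.

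ADAM17, the sheddase of TNF and of several EGF receptor ligands, fell, and its close relative ADAM10, which cuts Notch receptors and cadherins, did not pass the test. ADAM17 was 18.7, 19.3 and 20.1 FPKM in oeNC and 13.2, 11.7 and 13.6 FPKM in oeSTUB1. The groups were clearly apart, and oeSTUB1 replicate 2 was the lowest library. Its log2 fold change of -0.59 (SE 0.085, limma adjusted p = 0.0039) became -0.53 without that library. ADAM17 lies on chromosome 2 from 9488486 to 9556732 on the minus strand of GRCh38 (GENCODE release 29). Genes of chromosome 2 were shifted downwards as a whole, with a median of -0.21 on the log2 scale over 1031 genes and 77.3% of them lower, against 0.02 and 47.4% over all genes. Upward shifts were seen on chromosome 9 (0.16, 33.3% lower), which carries ADAMTS13, and on chromosome Y (2.07 over 14 genes, 7.1% lower), which carries no member. The part of the chromosome 2 shift in the result for ADAM17 was not tested.

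ADAM10 was 29.2, 30.1 and 29.8 FPKM in oeNC and 29.1, 22.5 and 31.5 FPKM in oeSTUB1. Only oeSTUB1 replicate 2 was clearly low, and the groups overlapped. The log2 difference was -0.11 (95% confidence interval -0.40 to 0.17, limma adjusted p = 0.58) and changed sign to 0.03 without that library. ADAM9, a sheddase with wide substrates, was 119, 122 and 119 FPKM in oeNC and 125, 108 and 121 FPKM in oeSTUB1. Its groups overlapped, with a log2 difference of -0.03 (95% confidence interval -0.22 to 0.17) that became 0.04 without oeSTUB1 replicate 2. ADAM10 exceeded ADAM17 by a ratio of 1.49 to 1.56 in the oeNC libraries and 1.92 to 2.32 in the oeSTUB1 libraries.

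ADAM19, also called meltrin beta and a sheddase of neuregulins, was 1.33, 1.34 and 1.21 FPKM in oeNC and 3.72, 2.47 and 2.32 FPKM in oeSTUB1. The groups did not overlap, and oeSTUB1 replicate 1 was highest. The log2 fold change was 1.05 (SE 0.184, limma adjusted p = 0.0092). ADAM15 was 22.0, 22.0 and 21.3 FPKM in oeNC and 23.9, 26.7 and 27.4 FPKM in oeSTUB1. These groups were separate although the log2 difference of 0.25 missed the threshold (SE 0.080, limma adjusted p = 0.079). It passed without oeSTUB1 replicate 2 (0.23, limma adjusted p = 0.037, with 0.037 to 0.23 over the alternatives). ADAM12 also passed there (0.59, limma adjusted p = 0.043), but its groups overlapped over all libraries.

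ADAM11, ADAM22 and ADAM23 lack a working protease site and act as adhesion receptors, best known for binding LGI proteins at synapses. ADAM11 was 1.223, 1.33 and 1.15 FPKM in oeNC and 0.721, 0.774 and 0.836 FPKM in oeSTUB1, and ADAM22 was 2.08, 2.01 and 1.98 FPKM against 1.45, 0.893 and 1.19 FPKM. Neither gene showed an overlap between the groups. The log2 fold changes were -0.60 for ADAM11 (SE 0.137, limma adjusted p = 0.026) and -0.75 for ADAM22 (SE 0.174, limma adjusted p = 0.027). Both calls were lost when the low-value filter was dropped (limma adjusted p = 0.065 and 0.063, with 0.013 to 0.13 and 0.0062 to 0.10 over the alternatives) and without any single oeNC library. ADAM11 also lost its call without oeSTUB1 replicate 1 and ADAM22 without oeSTUB1 replicate 3. ADAM23 was 3.62 to 4.38 FPKM in oeNC and 2.67 to 3.41 FPKM in oeSTUB1, separate groups whose log2 difference of -0.41 missed the threshold (limma adjusted p = 0.078). ADAM23 lies on chromosome 2 as well. Of the other tested ADAM genes, ADAM8 and ADAM32 overlapped between the groups and ADAM28 was low and separate without passing, while ADAM18, ADAM20, ADAM21, ADAM29 and ADAM33 stayed below the filter.

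ADAMTS9 fell most of the tested members on the log2(FPKM + 0.1) scale, whereas limma-voom on the recovered fragments put ADAMTS2 lower (-1.90 against -1.52 for ADAMTS9). This protease cleaves versican and aggrecan, and it was 19.6, 20.03 and 18.3 FPKM in oeNC and 8.44, 5.18 and 7.03 FPKM in oeSTUB1. The groups were far apart, and oeSTUB1 replicate 2 was the lowest of all. The log2 fold change was -1.50 (SE 0.164, limma adjusted p = 0.0012) and was -1.32 without that library. ADAMTS9 lies on chromosome 3 from 64515654 to 64688000 on the minus strand of GRCh38 (GENCODE release 29). Its antisense neighbours were nearly silent, with at most 10 fragments of ADAMTS9-AS2 and 1 fragment of ADAMTS9-AS1 in any library. ADAMTS15 and ADAMTS8, from the same group of proteoglycan-cleaving enzymes, did not pass. ADAMTS8 was separate and higher (0.0375 to 0.0716 FPKM against 0.153 to 0.183 FPKM, log2 difference 0.76, limma adjusted p = 0.073), and ADAMTS1, ADAMTS4 and ADAMTS5 were below the filter.

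ADAMTS2, which removes the N-propeptide of fibrillar procollagens, was 0.292, 0.257 and 0.238 FPKM in oeNC and 0.0675, 0.0785 and 0.0601 FPKM in oeSTUB1. These values came from 74, 65 and 64 fragments against 17, 19 and 15. The groups did not overlap, with a log2 fold change of -1.10 (SE 0.213, limma adjusted p = 0.014), and the call was lost without oeNC replicate 1 or oeNC replicate 2 (limma adjusted p = 0.073 and 0.064, with 0.0016 to 0.073 over the alternatives). The size of this fall depended on the pseudocount, with -0.24 at 1, -1.79 at 0.01 and -1.90 in limma-voom. The other procollagen N-proteinases, ADAMTS3 and ADAMTS14, were below the filter. ADAMTS16 was 0.336, 0.324 and 0.322 FPKM in oeNC and 0.834, 0.619 and 0.723 FPKM in oeSTUB1. All oeSTUB1 libraries were higher, with a log2 fold change of 0.94 (SE 0.171, limma adjusted p = 0.011), and the value without oeNC replicate 2 just missed the threshold (limma adjusted p = 0.051, with 0.0046 to 0.051 over the alternatives). ADAMTS10, which binds fibrillin microfibrils, was 8.64, 9.38 and 9.02 FPKM in oeNC and 8.86, 7.27 and 9.37 FPKM in oeSTUB1. Its groups overlapped, and the log2 difference of -0.09 (95% confidence interval -0.35 to 0.17) turned to 0.02 without oeSTUB1 replicate 2. ADAMTS7, ADAMTS12 and ADAMTS13 also overlapped between the groups, and ADAMTS6, ADAMTS17 and ADAMTS18 were below the filter.

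**Figure D3:**
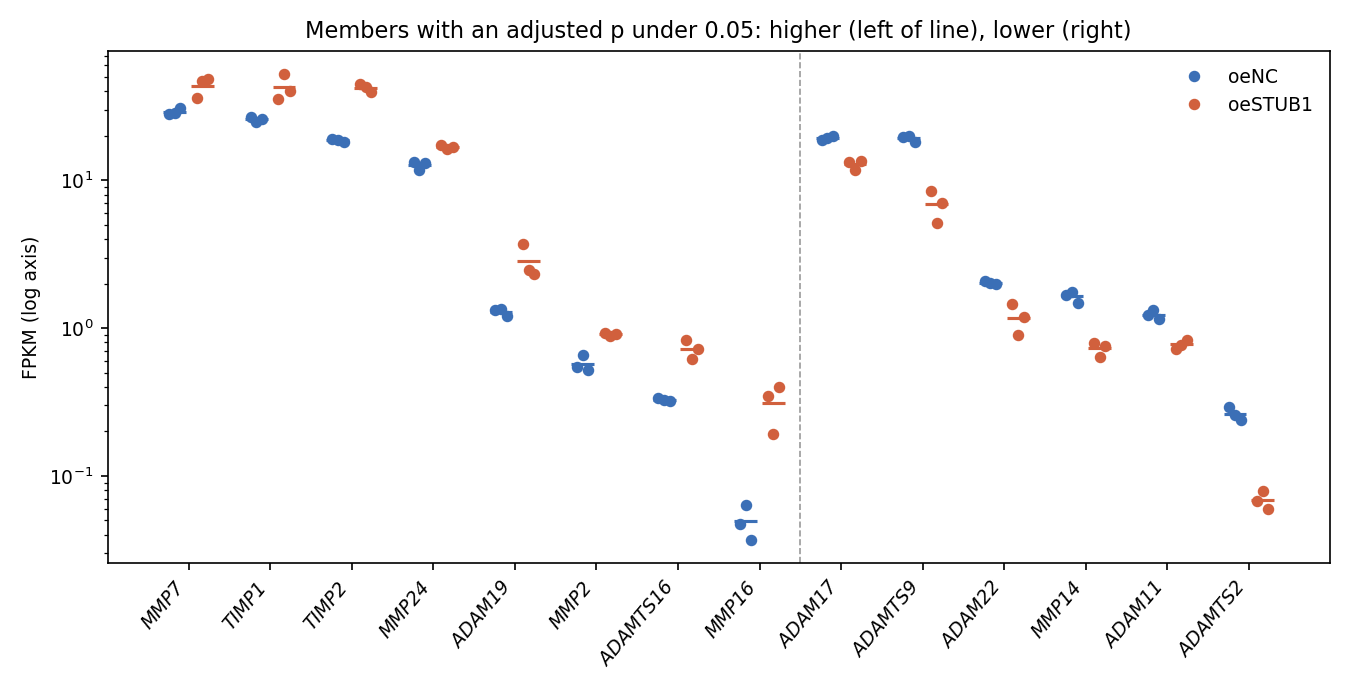
FPKM (log axis) in each library for the 14 members with an adjusted p under 0.05, points for libraries and bars for group means (n = 3), with members higher in oeSTUB1 left of the dashed line and lower members right of it. The points of the 2 groups do not overlap for any of the 14 members, and MMP16 and ADAMTS2 are the lowest in level.

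The 20 untested members reached at most 0.134 FPKM in any library. They had at most 24 fragments in a library, in ADAMTS1, and 16 of them stayed under 10 fragments throughout. At most 3 fragments in every library were found for 8 of them. In the limma fit with no filter, 0 of the 20 passed and 0 had an unadjusted p under 0.05, the lowest being 0.119 for MMP21.

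Genes that act with these proteases were described from a list of 47 activators, partners, regulators and substrates, of which 43 were in the table and 34 were tested. In limma 6 were higher and 5 lower, which is 17.6% and 14.7% of those tested, beside 7.01% and 6.59% of all genes tested. TLL1, among the lower genes, reached the minimum of 0.1 FPKM only through oeNC (mean 0.378 FPKM, against 0.0948 FPKM in oeSTUB1). The shares among tested genes do not stand for all 43. This list too was chosen with earlier results of these data known, so its shares are a description. Versican (VCAN), a matrix proteoglycan and substrate of ADAMTS9, was 101, 103 and 97.0 FPKM in oeNC and 22.1, 10.5 and 19.5 FPKM in oeSTUB1. It fell in every oeSTUB1 library, most in replicate 2, with a log2 fold change of -2.59 (SE 0.245, limma adjusted p = 0.00065), and the ratio of VCAN to ADAMTS9 was 5.19 ± 0.0862 for oeNC and 2.47 ± 0.389 for oeSTUB1 (SD, n = 3). Of the proteoglycan substrates VCAN was the 1 that could be tested, with ACAN, BCAN, NCAN and DCN below the filter.

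Among 6 tested activators of proenzymes, the proprotein convertase PCSK5 fell with a log2 fold change of -2.35 (limma adjusted p = 0.00038), from 1.29 ± 0.126 FPKM to 0.175 ± 0.0475 FPKM (SD, n = 3). PCSK7 and the plasminogen activator PLAT rose, with log2 fold changes of 0.45 and 1.31, and FURIN, PCSK6 and PLAU did not pass. CD44, a hyaluronan receptor that docks MMPs at the surface, rose from 43.4 ± 3.21 FPKM to 67.2 ± 8.34 FPKM (SD, n = 3, log2 fold change 0.63, limma adjusted p = 0.0089). BSG and CD151, listed with CD44 as inducer and docking proteins, did not pass, although BSG was lower in every oeSTUB1 library than in any oeNC library. None of the 3 tested ADAM17 chaperones passed (RHBDF1, RHBDF2, FRMD8), and of 6 ADAM10-binding tetraspanins TSPAN10 rose (1.19). The procollagen C-proteinase BMP1 rose (0.40) and its relative TLL1 fell (-1.29). ADAMTSL4, an ADAMTS-like protein with no protease domain, fell (-0.79). Of 7 transcription factors of the ETS and AP-1 families, ETS2 rose (0.68) and ETV4 fell (-0.55), while ETS1, ETV5, FOSL1, JUN and JUNB did not pass. PCSK7 and PLAT lost their calls when the low-value filter was dropped. A call also ended in at least 1 fit with a library left out for PCSK7 and BMP1 (each oeNC library and oeSTUB1 replicates 1 and 3), PLAT (oeNC replicates 2 and 3, oeSTUB1 replicate 1), TLL1 (oeNC replicates 2 and 3), ADAMTSL4 (oeNC replicate 2) and CD44 (oeNC replicate 1), with limma adjusted p-values from 0.051 to 0.18. With a pseudocount of 1 the log2 fold changes of PCSK5 (-0.96), TLL1 (-0.33), PLAT (0.47), TSPAN10 (0.62) and ADAMTSL4 (-0.40) were also smaller by more than 1.5 times. Without oeSTUB1 replicate 2 there were 12 higher and 7 lower genes in this list, where 26.8% of all genes passed.

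The CpG numbers of the promoter windows overlapped in range between members that rose and members that fell. The 4 higher members with a single promoter entry had 4 to 37 CpG (MMP7, TIMP1, ADAM19 and MMP24). The 4 lower members with a single entry had 10 to 47 (MMP14, ADAM22, ADAM17 and ADAMTS2). Tested members that did not pass had 7 to 44 in 10 windows and untested members 0 to 42 in 13 windows. The median was 21.0 CpG in the higher and 34.0 CpG in the lower windows. With 4 windows in each direction, and none for TIMP2 or ADAMTS9, whether CpG number goes with direction cannot be told. These values are given as a description.

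**Figure D4:**
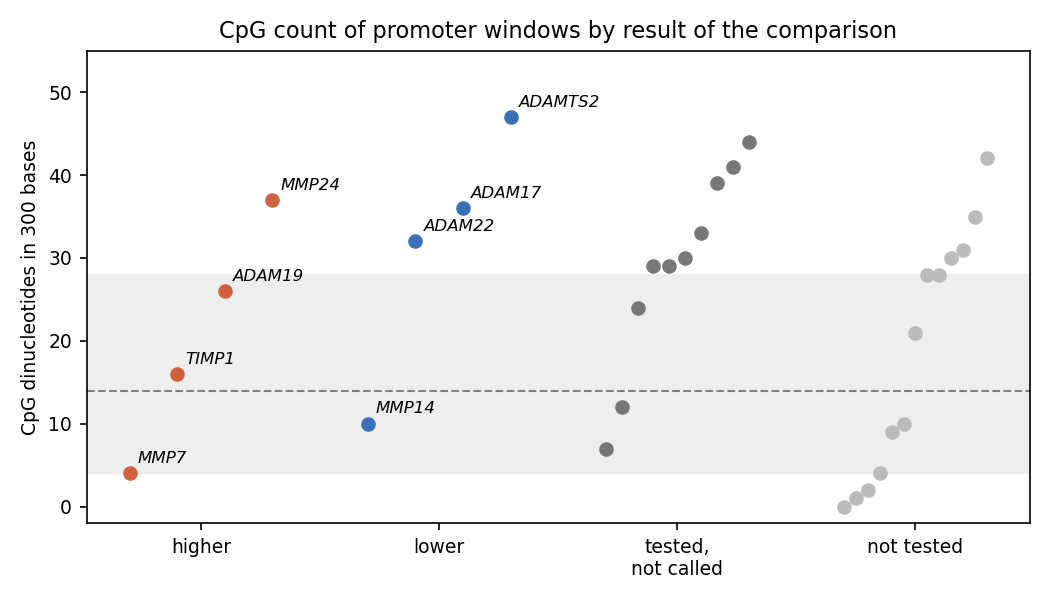
Number of CpG dinucleotides (y axis) in the 300-base promoter window of 31 members, by result of the comparison (x axis), with the median (dashed, 14) and quartiles (grey band, 4 to 28) of all 35116 windows. Higher members span 4 to 37 and lower members 10 to 47, with the points spread sideways for legibility.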

How the data were processed

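RNA-seq was analysed in 6 libraries of TFK1 cells, grouped by the labels. The authors deposited FPKM values for 23569 genes. The submitters' processing notes name fastp 0.20.1, HISAT2 2.1.0, HTSeq 0.11.2, R 3.2.0, DESeq2 1.22.2 and GRCh38.p13, without roles. Use of strand in counting is not given in the sources used here. Value columns of no mapped sample numbered 0.

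Whole fragments were recovered from the steps of the deposited FPKM values for 100.0% of genes (tolerance 0.0001 fragments, FPKM recomputed to within 4.9e-06), where a divisor shared by all 6 numbers of a gene cannot be seen. Totals per library were 33106564 to 36744521 fragments, and counting limits cover counting error only. The 15353 genes averaging 0.1 FPKM or more were compared on log2(FPKM + 0.1) with limma 3.58.1 in R 4.3.3 (eBayes with trend, two-sided, Benjamini-Hochberg over all genes tested, threshold 0.05). For single genes an exact permutation test of 3 against 3 libraries could not go below 0.1 and was not used. Recovery and fit were tested on simulated data. Other steps used Python 3.11.15.

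The biliary list held 1 further marker that is not reported here. The members and gene lists were chosen with earlier results of these data known. Values per library are given for members that passed, for others with a group mean of at least 5 FPKM, and for TIMP1 to TIMP4, ADAM10, ADAM17, MMP2, MMP7, MMP9 and MMP14, and others are summarised. Related genes are named with values where they passed. The alternatives tried were limma-voom on the recovered fragments, a replicate block, each library left out in turn, eBayes with no trend, quantile normalization, median-ratio scaling, a filter at 1 FPKM or none, pseudocounts of 1 or 0.01, and a lowess correction for gene length chosen after seeing the data. Positions are from GENCODE release 29 (GRCh38) and promoters from RefSeq (GRCh38.p14).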

Additional observations from a re-analysis of the deposited data

How the results depend on the processing

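Of the 14 called members, TIMP2, ADAMTS9, MMP14, ADAM17 and ADAM19 passed in limma under all 16 alternatives run, and no called member changed direction under any of them. Leaving out 1 library gave 3 to 10 higher and 3 to 6 lower members and 3 to 12 higher and 3 to 7 lower related genes, while the share of all genes that passed moved from 6.08% to 26.8% (13.6% with all libraries). The lowest member counts came without oeNC replicates 1 (4 and 3), 2 (3 and 3) and 3 (3 and 4), with 6.08% to 6.78% of all genes, and without oeSTUB1 replicate 3 there were 5 higher members (10.5% of all genes). The highest came without oeSTUB1 replicate 2 (10 and 6, with 26.8% of all genes), where ADAM9, ADAM10 and ADAMTS10 turned from below to above 0 without passing. Over the fits that left out 1 library, log2 differences ran from -0.070 to 0.037 for ADAM9, from -0.214 to 0.029 for ADAM10, from -0.165 to 0.016 for ADAMTS10, and from -0.161 (without oeNC replicate 2) to 0.309 for MMP9. A filter at 1 FPKM left 21 members tested, of which 5 were higher and 5 lower, with 13.3% of all genes passing. In the related list 6 genes were higher and 2 lower under that filter, with fewer genes tested. The lowess correction for gene length, chosen after seeing the data, gave 10 higher related genes with 21.6% of all genes passing, and the cause was not tested. ADAMTS8 passed with no filter, without a trend and in limma-voom, and ADAM23 passed with the length correction.

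Correlations of the deviations of same-numbered libraries were -0.15, -0.08 and 0.15 over 11375 genes. Values of both signs do not settle whether libraries of the same number were prepared together, which the sources do not give. The replicate block gave 7 higher and 5 lower members with 9.69% of all genes passing, without MMP2 and ADAM11, and 4 higher and 5 lower related genes, without PCSK7 and BMP1. MMP9 and the untested members rest on few fragments.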
